A study of Arabidopsis thaliana with 32 samples.

Results

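In heated seedlings of Arabidopsis thaliana, 41 of 22746 probe sets that measure genes gave more signal after 0.25 h of heat than late in the heat or a day later. A probe set is a group of short probes on the array that together read one transcript. Each of the 41 had a group mean of log2(signal + 11) at 0.25 h that was at least 1 above the mean at 3 h of heat and at least 1 above the mean at 21 h of recovery, in shoots or in roots, with a mean signal of at least 100 at 0.25 h. The choice was made in shoots for 13 of them, in roots for 28 and in both tissues for 0. Probe sets of heat shock proteins, calmodulin-like proteins, expansins, SWEET transporters and 3 further genes were to be left out by symbol, but of the 44 such probe sets 0 met the thresholds. The members were thus chosen by their 0.25 h, 3 h and 21 h values, which are given below as a description and without a test.

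The plants were wild-type seedlings of the Col-0 accession, raised at 24 °C with 16 h of light per day on Murashige and Skoog medium. On day 16, after 3 h of light, they were brought to 38 °C. Shoots and roots were sampled at 0.25, 0.5, 1 and 3 h of heat, and at 1, 3, 9 and 21 h after return to 25 °C from the 3 h heat. The 16 groups had 2 arrays each, 32 in all, numbered replicate 1 and 2, and nothing in the labels tells whether they came from separate plants or cultures. The p-values therefore rest on a spread between arrays that may be technical. Unheated plants were not analysed here, and the times differed in clock hour, so a level at 0.25 h is read against other times of the same course and not against a level before the heat.

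A rise in temperature is sensed by plant cells within minutes. Many transcripts that answer stress early are known to climb and decline again before slower programmes, such as the synthesis of heat shock proteins, are fully under way. Genes of this early class in Arabidopsis are known to include transcription factors, calcium-binding proteins and small signalling proteins, and many of them answer to several kinds of stress.

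A single gene was named for 15 of the 41 members, 2 chosen in shoots and 13 chosen in roots. The other members were 3 probe sets that match several genes and 23 that were left unnamed here, 11 of them in shoots and 12 in roots, and these are given by their probe set number. Of the 15 named genes, 2 have a descriptive symbol. DLAH is an acylhydrolase, an enzyme that cleaves acyl chains from lipids, and sks15 is a relative of SKU5, a cell wall glycoprotein of the multicopper oxidase type that is known from directional root growth. AR781 has a symbol without a described role in the tables used, and the remaining 12 genes are known there by locus identifier only.

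The median signal of an array ranged from 31.6 to 49.0, and replicate arrays correlated at 0.984 to 0.993 over all probe sets on the log2 scale. Most tissue markers sought by name were not among the named probe sets, which left 6 for shoots and 2 for roots. All 6 shoot markers read higher on every shoot array than on any root array. The root marker PYK10 read higher on every root array than on any shoot array. EXPA7, a root hair expansin, was higher in roots by its median. The least similar pair was shoots at 1 h of heat, where replicate 1 read higher for 12 of the 13 shoot members and 3 of them differed by at least 1 log2 unit between the arrays. The signal of the 25S ribosomal RNA control probe set, a measure of residual ribosomal RNA, was 722 ± 220 (SD, n = 2) at 0.25 h, 2415 ± 263 at 0.5 h and 2322 ± 152 at 1 h of heat in roots, against 146 ± 47.6, 112 ± 2.47 and 1916 ± 180 in shoots. At 3 h of heat it was 3080 ± 431 (SD, n = 2) in roots and 2405 ± 7.74 in shoots. After 21 h of recovery it was 456 ± 165 in roots and 104 ± 5.7 in shoots. It thus differed between times at which members also differed, and its part in the results was not tested. The RNA came from whole organs, in which fewer cells of a type and less RNA per cell cannot be told apart.

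The courses over all 8 times describe how far the set has an early peak, and they hold the 3 times used to choose it. The highest group mean lay at 0.25 h for 24 of the 28 root members and for 10 of the 13 shoot members. Among root members, AR781, AT4G27280 and 251226_at were higher at 1 h of heat and 248728_at at 9 h of recovery. Among shoot members, 249862_at was higher at 1 h of recovery, and 252367_at and 257315_at at 9 h of recovery. The 2 arrays at 0.25 h lay above all 14 other arrays of their tissue for 24 root members and 9 shoot members, beside 2.40% of all probe sets in roots and 1.85% in shoots. These counts rest largely on the values that chose the members, so nothing is read from them. For the exceptions the set is therefore one with a high early level rather than a single early maximum.

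After 0.25 h the median level was lower in both tissues, and in roots its course was not steady. The members were chosen for a high value at 0.25 h, so a lower level at the next times is in part built into the choice. In roots the mean signal at 0.5 h was 14.5% to 75.1% of that at 0.25 h, with a median of 35.4% over the 28 members. It stood at 50.2% at 1 h of heat (range 24.3% to 124%) and at 24.7% after 1 h of recovery (6.75% to 65.6%). In shoots the medians over the 13 members were 54.8%, 49.5% and 51.2% at the same times, with ranges of 10.1% to 75%, 7.62% to 78.0% and 0.962% to 109%. The shoot members thus differed widely among themselves, above all after the heat ended. Between the 2 arrays at 0.25 h, the ratio of signals had a median of 1.17 in roots and 1.09 in shoots. The largest such ratio was 2.43, for 248727_at in roots, which read 160.2 and 66.

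**Figure D1:**
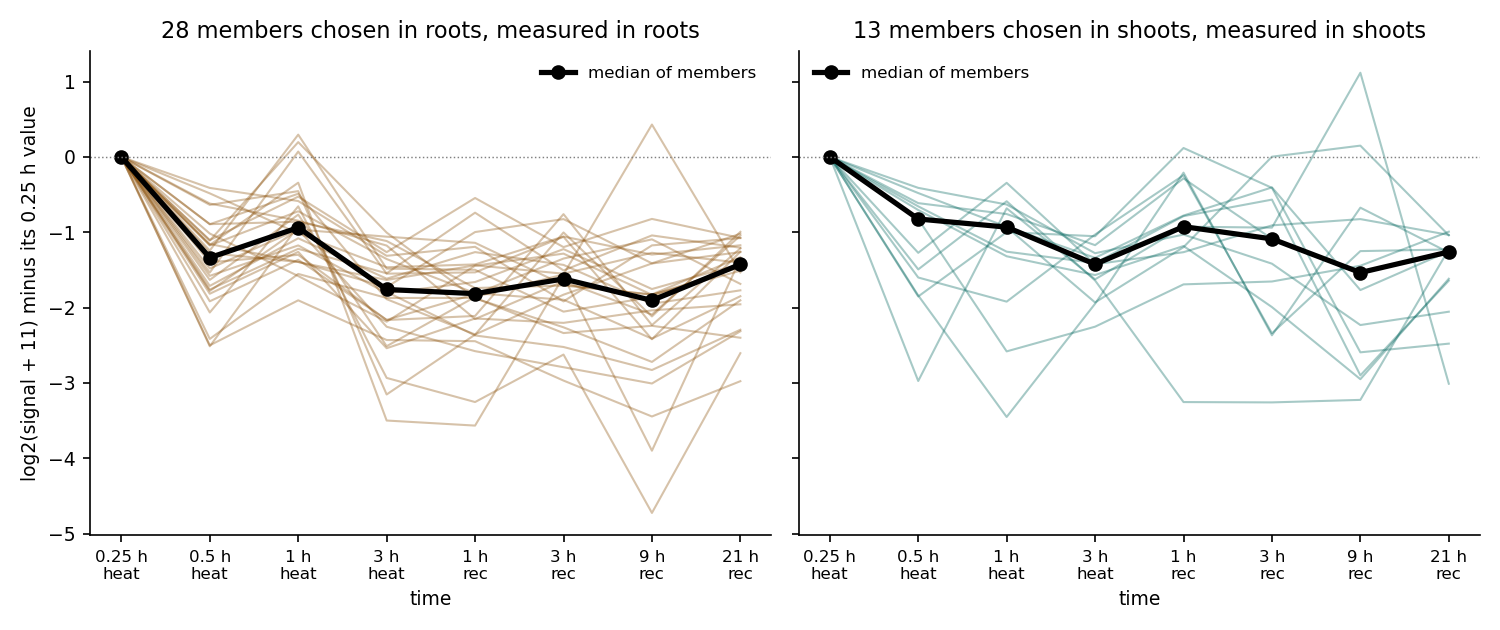
Level of every member in the tissue that chose it, as log2(signal + 11) of the group mean minus its value at 0.25 h, over 4 times of heat and 4 of recovery (rec). Thin lines are members and the black line is their median. In roots (left, 28 members) the median drops at 0.5 h, stands higher at 1 h of heat and drops again, while in shoots (right, 13 members) the lines spread apart during recovery.

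Among the 13 named root genes, 3 rose between 0.5 h and 1 h of heat by the test given further on. AT4G27652 read 257 and 345 at 0.25 h, 37.4 and 49.8 at 0.5 h, 170.1 and 139 at 1 h, then 85.9 and 72.2 at 3 h of heat, and 45.5 and 53.1 after 1 h of recovery. Its arrays at 0.5 h lay below those at every other time of heat, and those at 1 h lay between 0.25 h and 3 h. AT4G27280 read 807 and 971 at 0.25 h, 366 and 446 at 0.5 h, 1069.9 and 969.8 at 1 h, 519 and 356 at 3 h and 226 and 242 after 1 h of recovery. The arrays at 0.25 h and 1 h overlapped, and both pairs lay above all other root arrays. AR781 read 239.7 and 262 at 0.25 h, 102 and 97.3 at 0.5 h, 308 and 313 at 1 h, 86 and 79.4 at 3 h and 97.6 and 65.8 after 1 h of recovery. Here the 1 h arrays were the highest of the course, without overlap.

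The other named root genes had their highest group mean at 0.25 h. AT3G10930 read 200.4 and 242 at 0.25 h, 74.8 and 109 at 0.5 h, 115 and 145 at 1 h, then 84.4 and 75.2 at 3 h. AT4G29780 read 130.3 and 147 at 0.25 h, 35.1 and 50.2 at 0.5 h, 69.5 and 62 at 1 h, then 67.1 and 54.6 at 3 h of heat. Both kept their 0.25 h arrays above every later array. The acylhydrolase gene DLAH read 116 and 130.4 at 0.25 h, 48.1 and 50.1 at 0.5 h, 37.2 and 42.8 at 1 h, then 28.8 and 30.1 at 3 h, and stood at 64.3 and 64.9 after 3 h of recovery. It was lower at each time of heat and lay higher again in early recovery. The SKU5 relative sks15 read 145 and 127 at 0.25 h, 48.5 and 40.9 at 0.5 h, 52.8 and 44.4 at 1 h, then 26.9 and 16.6 at 3 h of heat, followed by 23.9 and 22 after 1 h and 74.9 and 76.6 after 3 h of recovery. Its 3 h recovery arrays stood above those of every other time but 0.25 h.

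The remaining named root genes stood lower after 0.25 h, some with a second high value at 1 h. AT2G42760 read 360.4 and 415 at 0.25 h, 175 and 196 at 0.5 h, then 126 and 118 at 1 h, lower at each step. AT1G14480 read 98 and 119 at 0.25 h, 59.2 and 89.5 at 0.5 h, then 44.7 and 51.5 at 1 h. AT1G14960 read 126 and 83.8 at 0.25 h, 31.5 and 24.1 at 0.5 h, then 46.1 and 34.6 at 1 h, with a wide gap between its arrays at 0.25 h. In these 3 genes the 0.25 h arrays did not overlap with those at 0.5 h. AT3G11930 read 436 and 417 at 0.25 h, 189 and 260.2 at 0.5 h, then 346 and 255 at 1 h. AT4G24380 read 107 and 127 at 0.25 h, 41.5 and 55.4 at 0.5 h, then 71.4 and 84 at 1 h. AT1G09750 read 133 and 151 at 0.25 h, 83.6 and 93.4 at 0.5 h, then 77 and 71 at 1 h. The first 2 of these stood higher at 1 h than at 0.5 h by their means, while AT1G09750 stood lower still.

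The 15 root members given by probe set number included 254120_at and 245777_at. The first read 291 and 359 at 0.25 h, 43.6 and 53.1 at 0.5 h, 77.8 and 79.8 at 1 h, then 50.5 and 52.2 at 3 h of heat. The second read 208 and 287 at 0.25 h, 32.4 and 42.4 at 0.5 h, 74 and 80.1 at 1 h, then 64.1 and 55.1 at 3 h of heat. In both, the 1 h arrays lay above those at 0.5 h and far below those at 0.25 h. Courses of this kind were also seen in 248448_at, with 239 and 248 at 0.25 h, 52.2 and 74.1 at 0.5 h, 118 and 121 at 1 h, then 50.3 and 34.4 at 3 h of heat, and in 251336_at, with 196 and 218 at 0.25 h, 44 and 57.9 at 0.5 h, 72.6 and 87.5 at 1 h, then 27.5 and 25.5 at 3 h of heat. In 249928_at the values were 133 and 164 at 0.25 h, 38 and 37.3 at 0.5 h, 63.1 and 65.5 at 1 h, then 42.1 and 39.8 at 3 h of heat. A slower course was that of 264953_at, which read 1975 and 2308 at 0.25 h, 1522 and 1693 at 0.5 h, 1612 and 1234 at 1 h, then 869 and 842 at 3 h of heat, and of 261574_at, which read 305 and 315 at 0.25 h, 182 and 209 at 0.5 h, 218 and 229 at 1 h, then 24.8 and 25.4 at 3 h of heat. These 2 kept most of their signal through the first hour of heat. Also lower from 0.5 h onward were 247708_at, with 237 and 257 at 0.25 h, 69.7 and 60.6 at 0.5 h, 90.7 and 109 at 1 h, then 65.4 and 89.5 at 3 h of heat, and 251745_at, with 203 and 235 at 0.25 h, 126 and 99.6 at 0.5 h, 111 and 120.4 at 1 h, then 94.9 and 95.2 at 3 h of heat. The probe set 266834_s_at, which matches several genes, read 164 and 217 at 0.25 h, 70.6 and 73.6 at 0.5 h, 57.9 and 73.2 at 1 h, then 56.7 and 51.1 at 3 h of heat. The arrays of 248727_at, far apart at 0.25 h as given above, read 22.6 and 21.2 at 0.5 h, 36.1 and 38.3 at 1 h, then 20 and 13.4 at 3 h of heat.

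**Figure D2:**
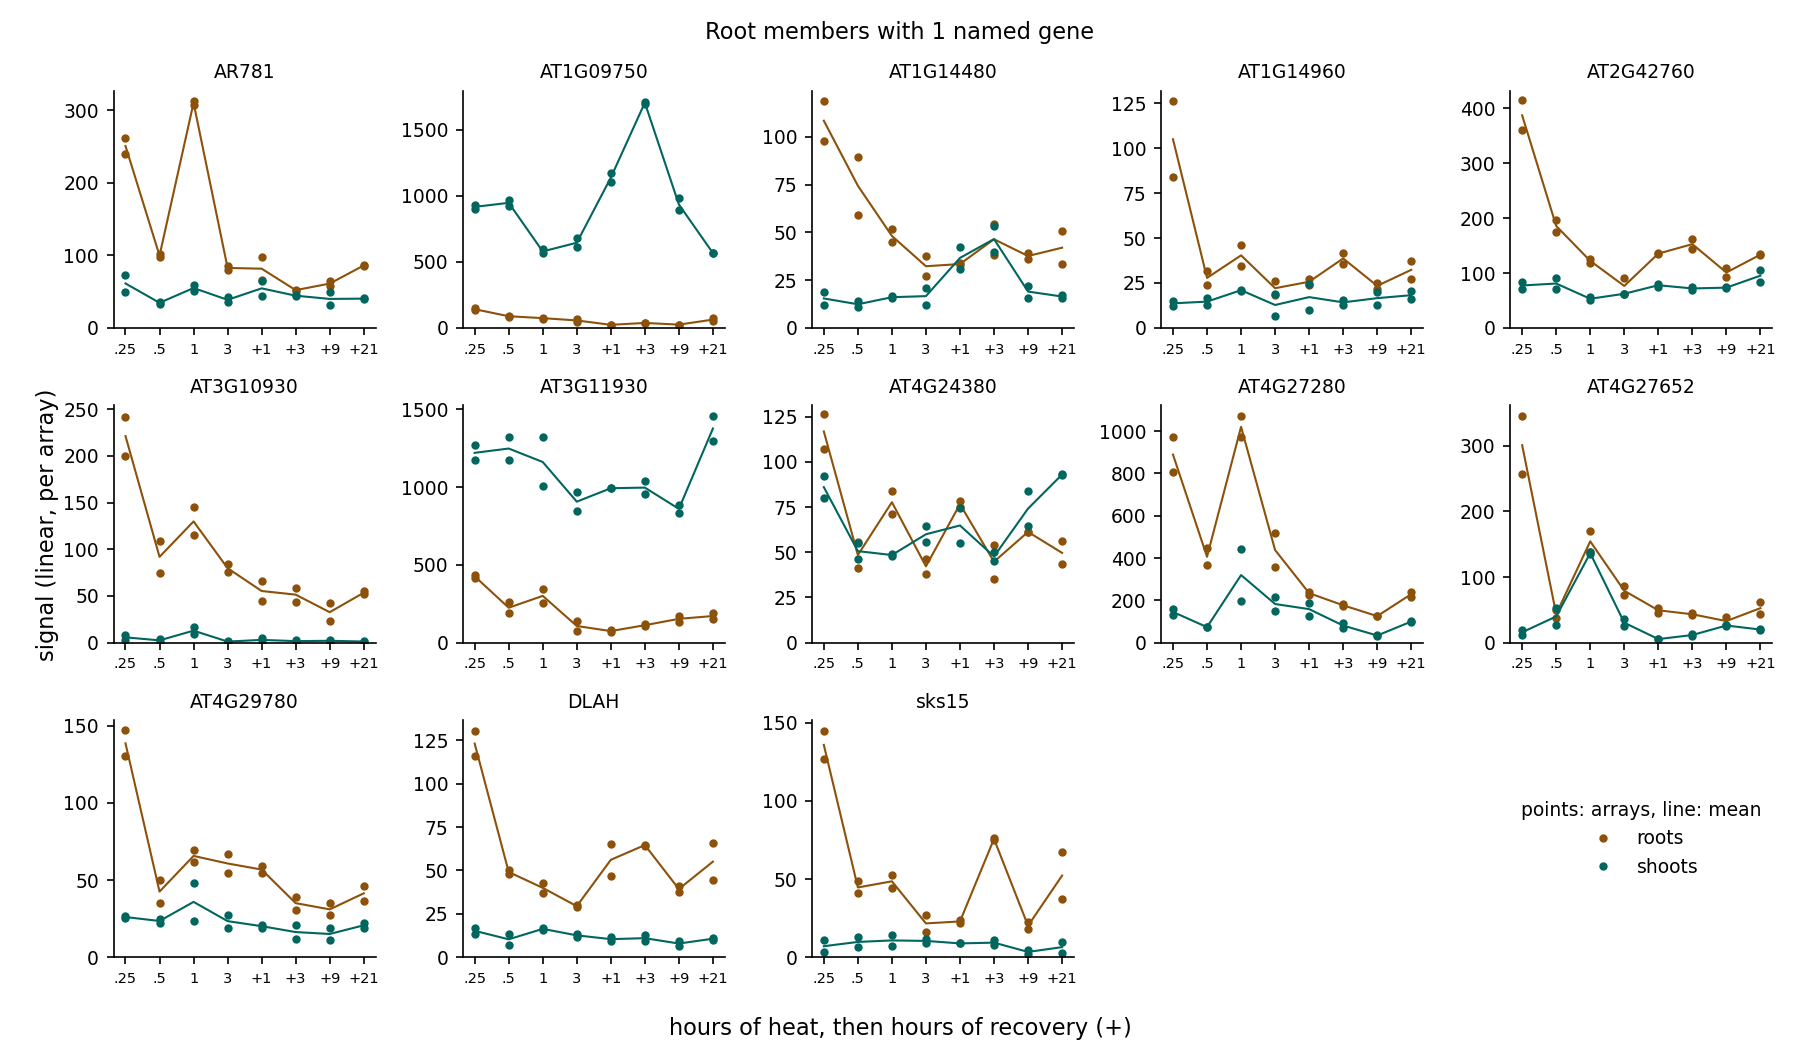
Signal of the 13 root members with a single named gene on every array, roots in brown and shoots in green, over hours of heat and then hours of recovery (+). Points are the 2 arrays of a group and lines join their means. AR781, AT4G27280 and AT4G27652 show a second high level at 1 h of heat in roots, and AT1G09750 and AT3G11930 read far higher in shoots.

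The step from 0.5 h to 1 h of heat was tested, between 2 times that the choice of members did not use. In roots 5 of the 28 root members were higher at 1 h and 0 were lower, at an adjusted p below 0.05 and a log2 difference of at least 1 in the limma fit over all probe sets. The planned count was that of members lower at 1 h, and the count higher was added after seeing the data. Of all 16782 probe sets tested, 2.16% were higher and 0.953% lower in this comparison. At an unadjusted p below 0.05, 16 members were higher and 2 lower. The median difference of the members was 0.54 on the log2 scale, against -0.13 over all probe sets tested, and it was above 0 for 22 of 28. Shares of all probe sets at that p, or with a difference above 0, are not given here. Nothing is therefore read from the counts of 16, 2 and 22. Among the measures of RNA quality, the ribosomal RNA control overlapped between these times in roots, with 2230 and 2601 at 0.5 h and 2214 and 2429 at 1 h. The actin 3'/5' ratio, the signal of the 3' over that of the 5' actin control probe set, did not overlap, with 14.7 and 15 at 0.5 h and 20.0 and 20.7 at 1 h. It was higher where the members were higher, and its part was not tested.

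The 5 that rose included the named genes AT4G27652, AR781 and AT4G27280. AT4G27652 rose by 1.60 ± 0.21 (SE) on the log2 scale, with a limma adjusted p of 3.73e-06. AR781 rose by 1.54 ± 0.17 (limma adjusted p = 2.44e-07) and AT4G27280 by 1.31 ± 0.24 (limma adjusted p = 2.70e-04). In each of the 3, both arrays at 1 h lay above both at 0.5 h. The other 2, named by probe set after their values were seen, were 251226_at and 248844_s_at. The first read 53.7 and 19.6 at 0.5 h, then 149.7 and 118 at 1 h, and rose by 1.70 ± 0.30 (limma adjusted p = 1.89e-04). The second matches several genes and went from 172 and 131 at 0.5 h to 480.3 and 363 at 1 h, a rise of 1.41 ± 0.23 (limma adjusted p = 5.62e-05). At the other end, AT2G42760 had the lowest difference of the root members, -0.56 ± 0.14, which was not called.

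**Figure D3:**
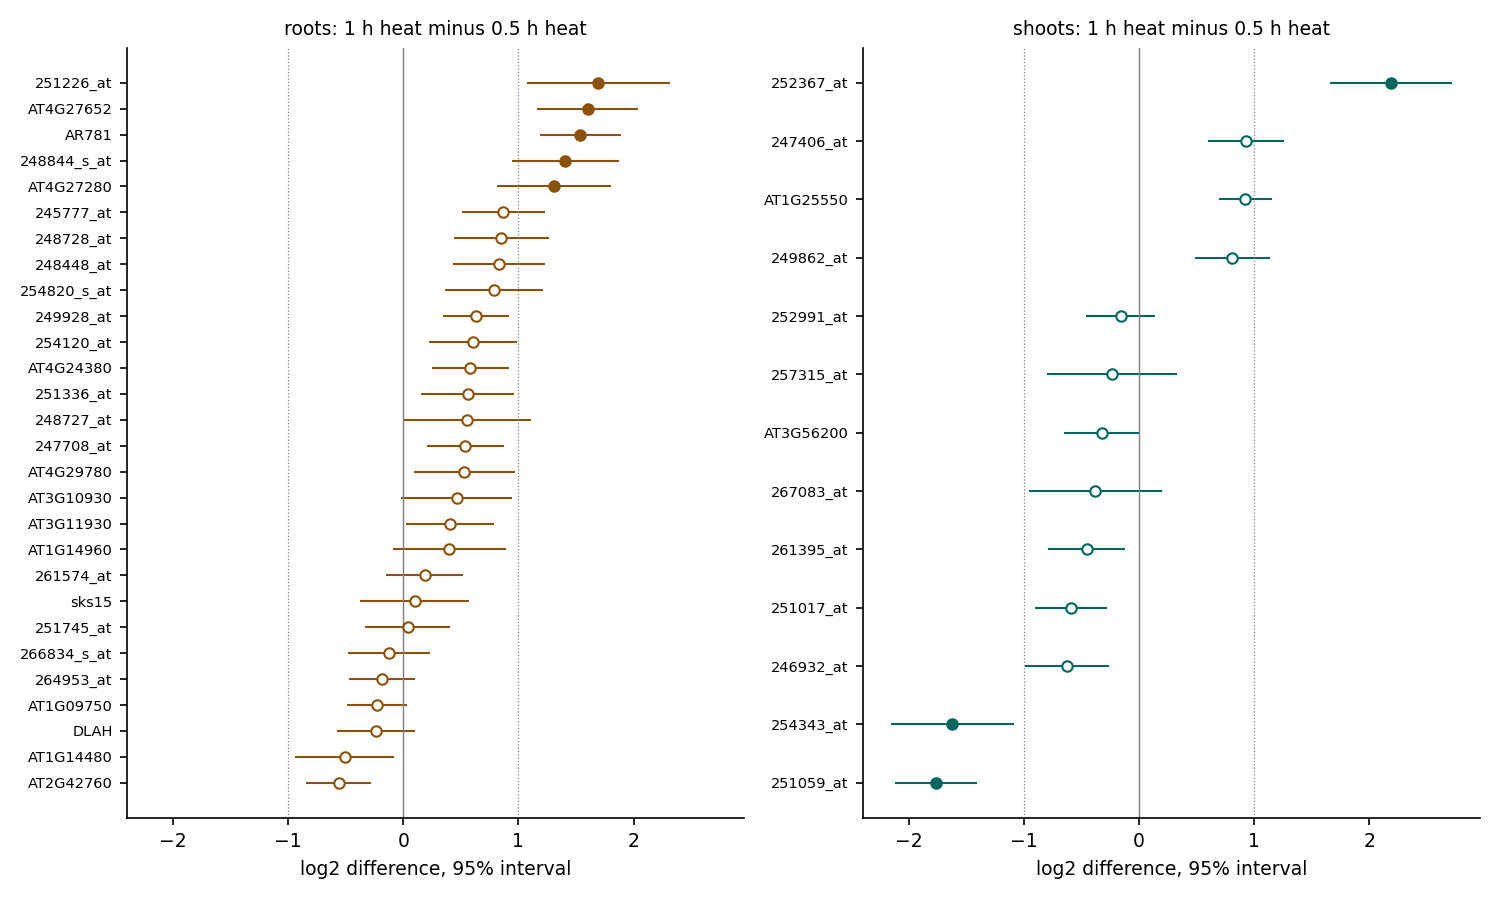
Log2 difference between 1 h and 0.5 h of heat for every member in the tissue that chose it, with its 95% interval from the limma fit. Filled points were called (adjusted p below 0.05 and at least 1 in size) and dotted lines mark a difference of 1. Of 28 root members (left) 5 were higher at 1 h, and of 13 shoot members (right) 1 was higher and 2 were lower.

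Between 1 h of heat and 1 h of recovery, a span that holds the later heat as well as its end, some root members fell. At 1 h of recovery against 1 h of heat, 12 of the 28 root members were lower and 0 were higher, beside 4.89% lower and 4.29% higher among all probe sets tested. The planned count was that of members higher, and the count lower was added after seeing the data. At an unadjusted p below 0.05, 17 members were lower and 2 higher. The median difference of the root members was -0.84, against 0.14 over all probe sets, and it was above 0 for 3 members. Without shares of all probe sets at that p or above 0, nothing is read from the counts of 17, 2 and 3. The 12 include 6 named genes, AT4G27280, AT3G11930, AR781, AT4G27652, AT1G09750 and AT3G10930, and the largest falls among all 12 were those of 254820_s_at and 248844_s_at, which match several genes. All 12 already stood lower at 3 h of heat, with both arrays below those at 1 h of heat, which the choice by low 3 h values favours. The 1 h recovery time lies between 3 h of heat and 21 h of recovery, where the choice asked for low values. A low level there can thus be favoured too, and the count of 12 is not read against the share of all probe sets. In 4 of the 12, AT4G27280, AT4G27652, AT1G09750 and AT3G10930, both arrays at 1 h of recovery lay below those at 3 h of heat as well. How many of all probe sets show such gaps is not given here, so these 2 counts only describe the 12. AR781 read 86 and 79.4 at 3 h of heat, then 97.6 and 65.8 after 1 h of recovery, at one level within the spread of its arrays. The ribosomal RNA control was also lower at 1 h of recovery in roots (840 ± 38.7, SD, n = 2) than at 1 h of heat, and the actin 3'/5' ratio was 10.5 and 9.61 against 20.0 and 20.7. The part of neither was tested.

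AT4G27280 fell by 2.07 ± 0.24 (limma adjusted p = 1.53e-07), from 1069.9 and 969.8 to 226 and 242. AT3G11930 went from 346 and 255 to 78.2 and 70.6 and fell by 1.85 ± 0.19 (limma adjusted p = 1.62e-08). AR781 fell by 1.82 ± 0.17 (limma adjusted p = 5.48e-09), AT4G27652 by 1.45 ± 0.21 (limma adjusted p = 4.56e-06) and AT1G09750 by 1.31 ± 0.13 (limma adjusted p = 8.48e-09). In all 5 genes the arrays of the 2 times did not overlap. The probe set 254820_s_at read 606 and 587 at 0.25 h, 585 and 352 at 1 h of heat, 53 and 32.5 at 3 h of heat and 50.2 and 30.4 after 1 h of recovery. It stood at 204 and 177 after 3 h and at 27.6 and 31.8 after 9 h of recovery, so that its level went up and down more than once. Its fall from 1 h of heat to 1 h of recovery was 3.21 ± 0.21 (limma adjusted p = 5.90e-12).

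At 0.5 h of heat 7 root members still read higher than at 9 h of recovery, and 1 read lower, beside 2.93% and 1.51% of all probe sets tested. Both counts share the 0.5 h arrays with the comparison of 1 h and 0.5 h above, and the clock hours of the 2 times differ. The choice by high 0.25 h and low 21 h values can favour a higher level at the neighbouring 0.5 h than at 9 h. The counts are therefore not read against those of all probe sets. The named genes among the 7 were AT4G27280, AT1G09750 and AT3G10930, with differences of 1.60 ± 0.24 (limma adjusted p = 1.71e-05), 1.47 ± 0.13 (limma adjusted p = 3.83e-09) and 1.25 ± 0.23 (limma adjusted p = 2.21e-04). AT4G27280 read 366 and 446 at 0.5 h, then 127 and 124 at 9 h of recovery. The member that read lower at 0.5 h, 248728_at, went from 29.7 and 27.1 at 0.5 h to 151 and 156 at 9 h of recovery, a difference of -2.06 ± 0.20. Its 0.25 h arrays read 147 and 75.4, below its arrays at 9 h of recovery.

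The 13 shoot members included 2 named genes, AT3G56200 and AT1G25550. AT3G56200 read 276 and 314 in shoots at 0.25 h, 95.4 and 84.5 at 0.5 h, 74.9 and 64.8 at 1 h, then 126 and 152 at 3 h of heat, followed by 263 and 232 after 1 h and 41.8 and 57.1 after 3 h of recovery. It was high at both ends of the heat period, at 0.25 h and 1 h after its end, and low between. The locus AT1G25550 read 307 and 271 at 0.25 h, 113 and 114 at 0.5 h, 246 and 205 at 1 h, then 106 and 95.5 at 3 h of heat, and 132 and 96.1 after 1 h of recovery. Its 0.25 h arrays lay above all others, with the 1 h arrays next. Of the 11 shoot members given by number, 267083_at read 1381 and 1278 at 0.25 h, 1033 and 962 at 0.5 h, 1239 and 469 at 1 h, then 521 and 562 at 3 h of heat, with a wide gap between the arrays at 1 h. Lower through the heat without such a gap were 251017_at, with 678 and 762 at 0.25 h, 383 and 523 at 0.5 h, 316 and 274 at 1 h, then 262 and 267 at 3 h of heat, and 261395_at, with 136 and 139 at 0.25 h, 101 and 89.8 at 0.5 h, 75.7 and 58.6 at 1 h, then 57.1 and 38.3 at 3 h of heat. In 252991_at the values were 228 and 221 at 0.25 h, 137 and 149 at 0.5 h, 149 and 107 at 1 h, then 99.9 and 87.2 at 3 h of heat, with 198 and 166 after 1 h of recovery. High again late in the course was 257315_at, which read 262 and 273 at 0.25 h, 65 and 59.1 at 3 h of heat and 311 and 285 after 9 h of recovery.

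The shoot members were split in their course between 0.5 h and 1 h of heat. Of the 13, 1 was higher at 1 h and 2 were lower, beside 2.43% higher and 1.41% lower among all probe sets tested, and their median difference was -0.32 against -0.11 over all. Without replicate 1 at 1 h, 3 were lower. The ribosomal RNA control also differed between these times in shoots, as given above, and the actin 3'/5' ratio was 5.86 and 3.82 at 0.5 h, then 14.9 and 4.72 at 1 h, with the arrays at 1 h far apart. The part of neither was tested. The 3, named by probe set after their values were seen, were 252367_at, 251059_at and 254343_at. The first read 435 and 287 at 0.25 h, 39.2 and 33.5 at 0.5 h, then 306 and 135 at 1 h, with the 2 arrays at 1 h far apart. It rose by 2.19 ± 0.26 (limma adjusted p = 4.20e-07), and by 1.63 without replicate 1 at 1 h. The second read 322 and 277 at 0.25 h, 151 and 178 at 0.5 h, then 47.9 and 33.9 at 1 h, and fell by 1.77 ± 0.17 (limma adjusted p = 2.27e-08). The third read 601 and 713 at 0.25 h, 199.9 and 151 at 0.5 h, then 60.7 and 39.4 at 1 h, and fell by 1.62 ± 0.26 (limma adjusted p = 3.98e-05). AT1G25550 was higher at 1 h by 0.92 ± 0.11 (limma adjusted p = 6.88e-07), a difference under the size required for a call.

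Between 1 h of heat and 1 h of recovery, shoot members moved in both directions. At 1 h of recovery against 1 h of heat, 3 of 13 were higher and 1 was lower, beside 8.14% and 4.53% of all probe sets tested. The ribosomal RNA control was at 203 ± 65.8 (SD, n = 2) at 1 h of recovery in shoots, far below its level at 1 h of heat, while the actin 3'/5' ratio, at 6.86 and 7.6, lay between the arrays at 1 h of heat. The part of neither was tested. AT3G56200 rose by 1.68 ± 0.16 (limma adjusted p = 3.62e-09), with both arrays at 1 h of recovery above both at 1 h of heat. The largest rise, 3.26 ± 0.26 (limma adjusted p = 1.32e-10), was that of 254343_at, which went from 60.7 and 39.4 to 628 and 505, close to its level at 0.25 h, and stood at 141 and 183 at 3 h of heat. The third, 249862_at, went from 637 and 379 to 1283 and 947, a rise of 1.15 ± 0.16 (limma adjusted p = 1.25e-06). That rise was 0.78 without replicate 2 of the 1 h heat arrays and 0.93 without replicate 1 at 1 h of recovery, which is below the size required for a call. The count of 3 became 4 without replicate 1 and 2 without replicate 2 at 1 h of heat, and 2 without replicate 1 at 1 h of recovery. The 1 that fell, 247406_at, read 104 and 102 at 0.25 h, 59.1 and 71.1 at 1 h of heat, 25.8 and 25.6 at 3 h of heat and 1.31 and 0.685 after 1 h of recovery. It fell by 2.66 ± 0.16 (limma adjusted p = 7.46e-13), and it stayed between 0.685 and 1.54 through 9 h of recovery before it read 35.9 and 39.9 at 21 h.

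**Figure D4:**
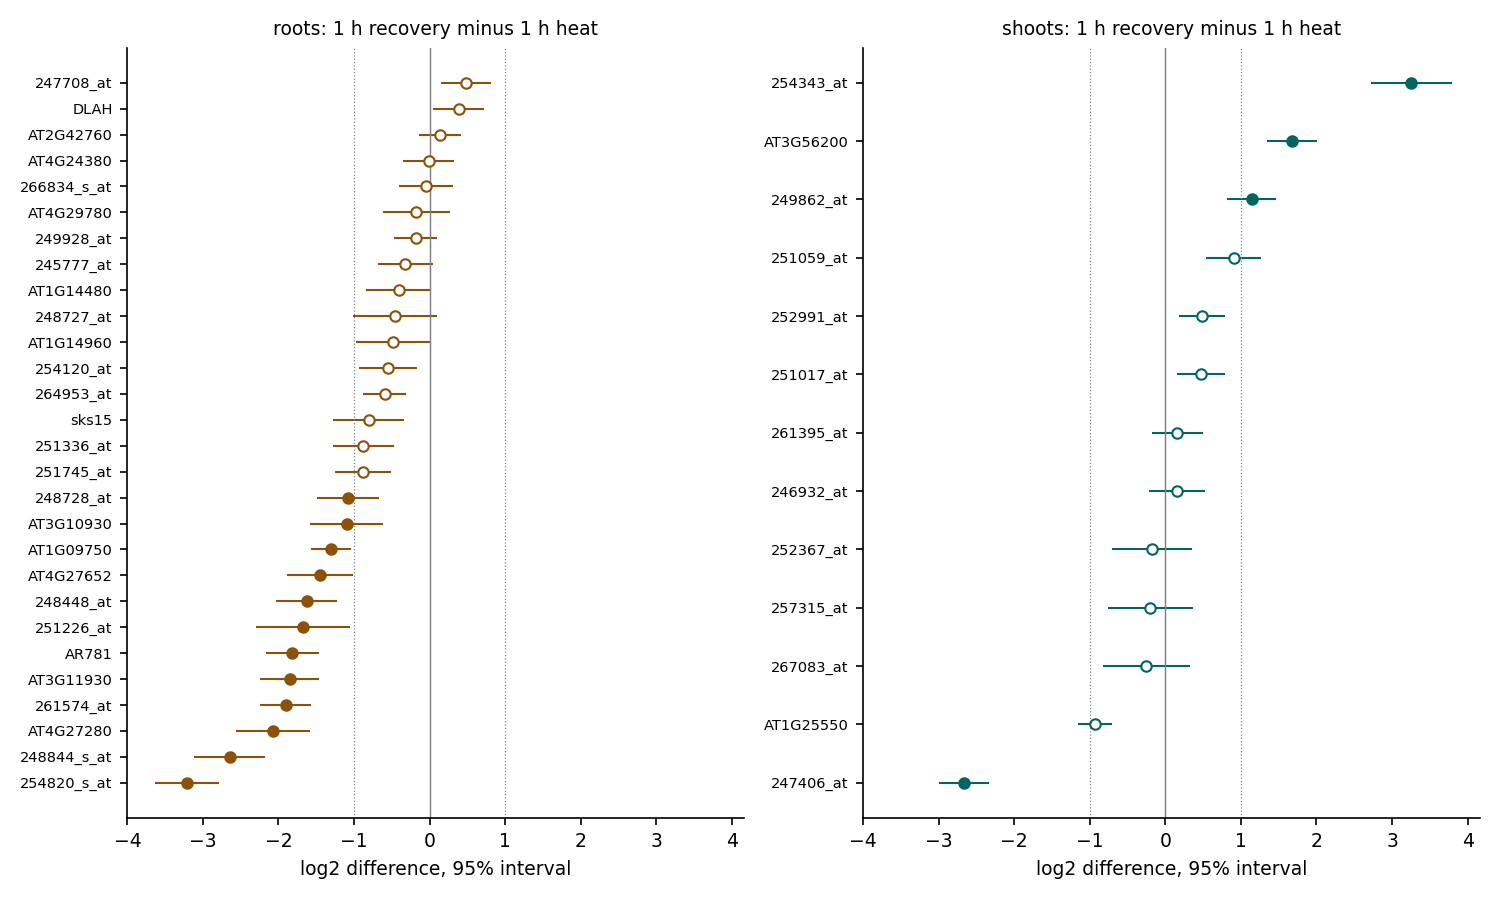
Log2 difference between 1 h of recovery and 1 h of heat for every member in the tissue that chose it, with its 95% interval from the limma fit. Filled points were called. Of 28 root members (left) 12 were lower in recovery and 0 higher, while of 13 shoot members (right) 3 were higher and 1 was lower.

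At 0.5 h of heat, 5 shoot members read higher than at 9 h of recovery and 2 read lower, beside 2.75% and 3.27% of all probe sets tested. As in roots, the choice can favour a higher level at 0.5 h, so the counts are not read against these shares. The 2 shoot arrays at 9 h of recovery differed in the ribosomal RNA control, at 1270.3 and 88.6, and the count higher was 5 without the first and 6 without the second. The largest of the 5, 246932_at, read 72.9 and 89.6 at 0.5 h, then 6.15 and 10.8 at 9 h of recovery, a difference of 2.25 ± 0.18 (limma adjusted p = 2.53e-10). Next was 251017_at with 383 and 523 against 79.2 and 94.7, a difference of 2.23 ± 0.15 (limma adjusted p = 1.87e-11). Of the 2 that read lower, 252367_at was at 39.2 and 33.5 at 0.5 h, then 766 and 826 at 9 h of recovery, a difference of -4.09 ± 0.26 (limma adjusted p = 3.68e-12). The other was 254343_at, at 199.9 and 151 against 408 and 408.

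Each tissue's members were next read in the tissue that had not chosen them. Of the 28 root members, 17 stayed under a signal of 50 on all 16 shoot arrays. The share of all probe sets that did so is not given here. The median signal of the shoot arrays was 31.6 to 41.5, so most probe sets read under 50 on each of them. The count of 17 is thus only a description. In shoots 1 of the 28 was higher at 0.25 h than at 3 h of heat, where 8.15% of all probe sets were, and 0 were higher at 0.25 h than at 21 h of recovery, where 0.56% were. At an unadjusted p below 0.05 in the limma fit, 7 were higher against 3 h and 3 against 21 h. Most root members gave little signal in shoots, which leaves little room for a call, so nothing is read from these counts against those of all probe sets. The 1 called was 251745_at, which read 113 and 111 in shoots at 0.25 h and 38.4 and 37.6 at 3 h, a difference of 1.33 ± 0.18 (limma adjusted p = 7.99e-07). In shoots the ribosomal RNA control had means of 146 at 0.25 h and 2405 at 3 h of heat. The actin 3'/5' ratio was 3.68 and 5.81 at 0.25 h, then 13.2 and 14.1 at 3 h. The part of neither was tested. Without replicate 2 of the shoots at 3 h the count against 3 h was 2, and without replicate 2 of the shoots at 21 h of recovery the count against 21 h was 1.

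Of the 13 shoot members, 5 were higher at 0.25 h than at 3 h of heat in roots, where 9.08% of all probe sets were. In roots the ribosomal RNA control differed between these times, with means of 722 at 0.25 h and 3080 at 3 h. The actin 3'/5' ratio was 11.6 and 10.4 at 0.25 h, then 21.9 and 16.9 at 3 h. The part of neither was tested. Against 21 h of recovery in roots, 0 of 13 were higher, where 0.739% of all probe sets were, and at an unadjusted p below 0.05 in the limma fit 0 were higher and 2 lower. The share of all probe sets at that unadjusted p is not given here, so nothing is read from the latter counts. The median difference against 3 h was 0.92, beside 0.16 over all probe sets, and that against 21 h was -0.09, beside -0.01. Both comparisons share the 0.25 h root arrays. The 5 were 254343_at, 249862_at, 247406_at, 257315_at and 251059_at. The largest, 254343_at, read 308 and 372 in roots at 0.25 h, 52.7 and 21.3 at 3 h, then 266 and 430.3 at 21 h of recovery. Its difference against 3 h was 2.95 ± 0.26 (limma adjusted p = 6.87e-10), and its arrays at 0.25 h lay within the range of those at 21 h. In roots this probe set thus stood apart from 3 h of heat but not from 21 h of recovery.

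Only some members were called in the tissue that had not chosen them. Of the 28 root members, 2 rose in shoots from 0.5 h to 1 h of heat and 26 were not called. Among all probe sets 2.43% rose. By 1 h of recovery, 1 had fallen from its 1 h heat level and 27 were not called, where 4.53% of all fell. Most root members gave little signal in shoots, so these counts only describe. In roots, 0 of the 13 shoot members rose and 1 fell over the first step. Over the second, 5 rose and 2 fell, beside 4.29% and 4.89% of all. AT4G27652 rose between 0.5 h and 1 h of heat in shoots as in roots, by 1.59 ± 0.21 (limma adjusted p = 3.50e-06), from 53.5 and 26.3 to 138 and 134. In shoots it had read only 12 and 19.6 at 0.25 h, so there the 1 h level was the highest of its course. It fell by 3.16 ± 0.21 (limma adjusted p = 5.90e-12) to 5.83 and 5.05 after 1 h of recovery, and had read 25.5 and 35.3 at 3 h of heat. AT4G27280 rose by 1.86 ± 0.24 (limma adjusted p = 2.00e-06) in shoots, from 72.9 and 73.9 to 442 and 196. Conversely, AT3G56200, chosen in shoots, rose by 1.38 ± 0.16 (limma adjusted p = 1.62e-07) in roots between 1 h of heat and 1 h of recovery, from 41.3 and 45.6 to 110.3 and 154. AT1G25550 fell in roots over the same step by 1.09 ± 0.11 (limma adjusted p = 2.00e-08), from 340.0 and 331 to 156 and 147.

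The difference between tissues in the step from 0.5 h to 1 h of heat was tested as an interaction. It was called for 6 of the 41 members, beside 2.75% of all probe sets tested. For AR781 the step in shoots minus that in roots was -1.01 ± 0.24 (limma adjusted p = 0.0108), and shoots went from 33.3 and 35.9 to 59.4 and 50.7. The root members 251226_at, 254820_s_at and 245777_at were called as well. For 251226_at the step was 0.29 in shoots and 1.70 in roots. In 254820_s_at it was -0.51 ± 0.21 in shoots against 0.79 ± 0.21 in roots. In 245777_at it was -0.18 ± 0.17 in shoots against 0.87 ± 0.17 in roots. The estimates of the last 2 thus had opposite signs in the tissues. The probe set 251226_at read 0.549 to 6.34 over all shoot arrays, below the constant of 11 added before the logarithm. The shoot member 251059_at fell further in shoots than in roots, with an interaction of -1.05 ± 0.25, with a limma adjusted p of 0.00856. For 252367_at the interaction was 2.52 ± 0.36 (limma adjusted p = 9.34e-05), and roots read 366 and 292 at 0.5 h against 252 and 263 at 1 h, below the size of a call. The count was 3 without replicate 2 of the shoots at 1 h or without replicate 2 of the shoots at 0.5 h, and 9 without replicate 1 of the shoots at 1 h.

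The tissues were compared in level at 0.5 h of heat. The choice required a signal of at least 100 in the tissue that made it and none in the other, so a higher level in roots of the root members is in part built into it, and nothing is read from the counts against those of all probe sets. Shoots read lower than roots for 18 of the 28 root members and higher for 2, beside 20.3% lower and 14.7% higher among all probe sets tested. The median of shoots minus roots was -1.32 for the root members and -0.30 over all probe sets. The widest gap was that of 264953_at, with 1522 and 1693 in roots and 28.7 and 29.1 in shoots, a difference of -5.34 ± 0.14. AT3G10930 read 74.8 and 109 in roots and 4.2 and 0.71 in shoots, a difference of -2.93 ± 0.23 (limma adjusted p = 2.70e-11). The 2 root members with more signal in shoots were AT1G09750 and AT3G11930. AT1G09750 read 83.6 and 93.4 in roots and 922 and 972 in shoots, and AT3G11930 read 189 and 260.2 in roots and 1324 and 1171 in shoots. Both met the rule in roots and gave far more signal in shoots, with differences of 3.27 ± 0.13 and 2.43 ± 0.19. Of the 13 shoot members, 2 were higher and 4 lower in shoots. The 2 were 251017_at, with 383 and 523 in shoots and 24.5 and 30.5 in roots, and 246932_at. AT1G25550 was among the 4 that read lower in shoots, at 113 and 114 against 335 and 297.

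**Figure D5:**
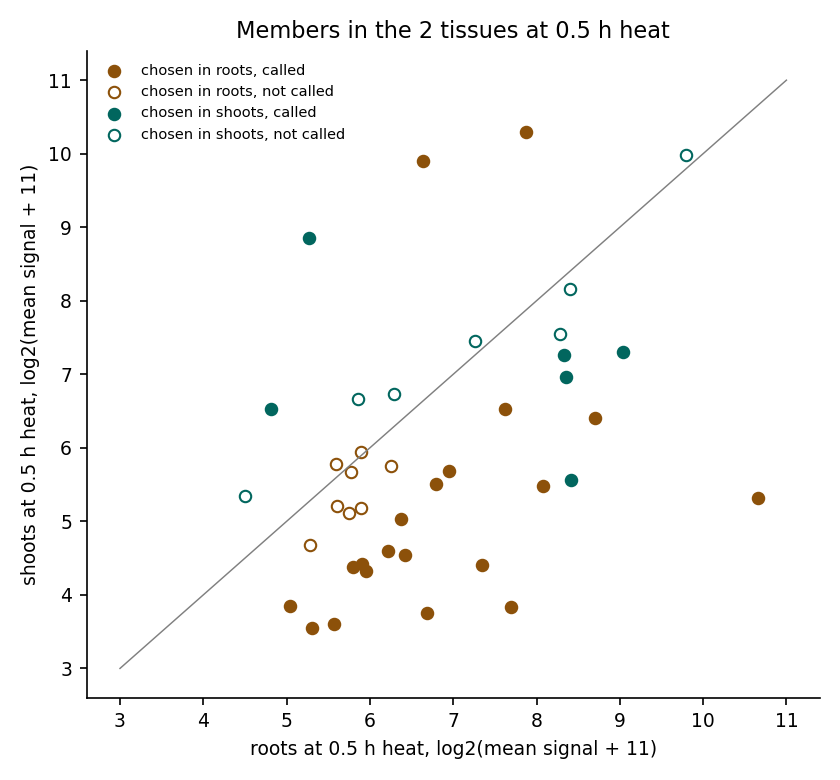
Mean level of each of the 41 members at 0.5 h of heat in roots (horizontal axis) and shoots (vertical axis), both as log2(mean signal + 11). Brown points were chosen in roots and green points in shoots, filled points were called in the comparison of the tissues, and the grey line marks equal levels. Most brown points lie below the line, and AT1G09750 and AT3G11930 are the 2 brown points far above it.

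Of the 15 named members, 0 carried a symbol of the 30 gene family lists used here. The lists included WRKY, AP2/ERF, NAC and C2H2 zinc finger factors, calcium sensors, MAP kinases, auxin response genes and photosynthesis genes. The lists were matched by symbol or synonym, and most named members are known by locus identifier only, so they could hardly match. The 0 therefore does not tell what these genes encode. Only 22 of the 30 lists held a named probe set. In all, 225 named probe sets fell into them, of which 179 were tested, so the lists covered few genes. At 0.25 h against 21 h of recovery, 4 list genes were called higher, 1 in shoots and 3 in roots. These are 0.559% and 1.68% of the 179 tested, beside 0.56% and 0.739% of all probe sets, so the share is near the background in shoots and rests on 3 genes in roots. They were PORB, an enzyme of chlorophyll synthesis, in shoots, and psaI, a subunit of photosystem I, the AP2/ERF factor ORA47 and the zinc finger gene STZ in roots. PORB and psaI, both from the photosynthesis list, did not peak early. In shoots PORB had a mean signal of 404 at 0.25 h and 1771 at 3 h of heat. In roots psaI had 146 at 0.25 h, 301 at 0.5 h and 238 at 3 h of heat. STZ, a stress-induced transcriptional repressor, was higher by 2.54 ± 0.22 in roots (limma adjusted p = 4.66e-08). STZ read 738 and 779.9 in roots at 0.25 h, 252 and 221 at 0.5 h, 936 and 784 at 1 h, then 520.4 and 500.3 at 3 h of heat, and 179.9 and 131 after 1 h of recovery. It was not a member because its level at 3 h was only 0.56 below that at 0.25 h. It rose between 0.5 h and 1 h by 1.81 ± 0.22 in roots (limma adjusted p = 8.52e-07), where AT4G27652, AR781 and AT4G27280 also rose. In shoots STZ rose over the same step by 2.06 ± 0.22 (limma adjusted p = 8e-08). It read 17.6 and 24.4 in shoots at 0.25 h, below its 63.5 and 74.6 at 3 h of heat.

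Some probe sets lay close to the limits of the choice. In shoots the members just inside were 251059_at, with 1.00 as the smaller of its 2 differences, and AT3G56200 with 1.03, while AT1G04770 with 0.96 and 255895_at with 0.97 lay just outside. In roots 261574_at with 1.01 and AT4G27280 with 1.02 lay just inside, and GH9B8, an endoglucanase gene, and 257774_at, with 0.98 and 0.99, just outside. A further 8 probe sets in shoots and 25 in roots met both differences but had a mean signal under 100 at 0.25 h. On replicate 1 alone, all 13 shoot members and 23 of the 28 root members met the rule. On replicate 2 alone, 9 and 20 did.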

How the data were processed

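The values were the MAS5 signal that the authors deposited for 32 arrays, linear and scaled by them to a 2% trimmed mean of 100 per array, as read from the values. MAS5 is named in the submitters' processing notes, and its version is not given in the sources used here. Of 22810 probe sets, 64 controls were left out. Genes were named from the platform table, updated through RefSeq (TAIR10.1), which held all 15 named members. Probe sets without a single gene lie outside the naming rule and are given by number, chosen after their values were seen.

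The deposited signal was transformed as log2(signal + 11), which understates changes of low signals. A probe set was tested where both arrays of at least 1 group exceeded their array's 40th percentile, which kept 16782, all 41 members included, and removed 5964. All arrays entered a single limma fit (version 3.58.1, R 4.3.3) of 16 group means, with eBayes and a mean-variance trend, 16 residual degrees of freedom (prior 8.27 by its median). In each of 12 contrasts, Benjamini-Hochberg adjustment ran over all probe sets tested. A call needs an adjusted p below 0.05 and a log2 difference of at least 1, and ± marks the SE of a difference. Several contrasts share the 0.25 h, 0.5 h or 1 h heat arrays and are not independent.

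Genes named were the 12 members per tissue with the largest smaller difference, up to 5 called members per contrast and direction, and those nearest the limits. The members and lists were chosen with earlier results of these data known. The fit was tested on simulated data. Alternatives were constants of 44 and 3, quantile normalization, scaling to the 75th percentile, no filter, no trend, no minimum difference, a replicate block and leaving out each array. Promoter and protein sequences were not analysed here. Tables and figures used Python 3.11.15, pandas 2.3.3, numpy 2.4.6 and matplotlib 3.10.9.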

Additional observations from a re-analysis of the deposited data

Results flagged for a closer look

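The step from 0.5 h to 1 h of heat differed between the tissues for 6 members by the limma interaction test. As shoots minus roots on the log2 scale, it was -1.41 for 251226_at, -1.30 for 254820_s_at, -1.05 for 245777_at and -1.01 for AR781, all chosen in roots. It was -1.05 for 251059_at and 2.52 for 252367_at, both chosen in shoots. For 251226_at the shoot arrays all read at or below 6.34, and leaving out replicate 2 of the shoots at 1 h, or replicate 2 of the shoots at 0.5 h, left 3 members called.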

How the results depend on the processing

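No single called value of the 41 members, 77 in all, changed direction under any alternative run, but 27 of the 77 lost their call with a constant of 44, 28 of 332 repeats lost it when 1 array was left out, and between 0 and 4 lost it under each of the constant 3, quantile normalization, 75th percentile scaling, no filter, no trend and the replicate block. The replicate numbers did not pair the samples: deviations of same-numbered arrays correlated at -0.19 to 0.16 over 120 pairs of groups (median 0.0041), and the replicate block moved no count by more than 1.5 times, with 5 root members higher at 1 h than at 0.5 h. The counts of root members higher at 1 h than at 0.5 h and lower at 1 h of recovery were added after seeing the data. With a constant of 44, the rule found 6 shoot and 17 root members. The counts higher became 3 (shoots, 0.5 h against 9 h of recovery), 4 (roots, the same), 3 (shoot members in roots at 0.25 h against 3 h) and 0 (root members in shoots), with 3 interactions and 14 tissue differences at 0.5 h, where the main count was 26. A larger constant shrinks differences of low signals by construction. With a constant of 3, 2 root members were higher in shoots at 0.25 h than at 3 h. Quantile normalization gave 8 shoot members by the rule and 8 root members higher at 1 h than at 0.5 h. The cause was not tested.

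Without the minimum difference, the counts against 0.5 h were 5 shoot members lower, 14 root members higher and 1 root member lower at 1 h of heat. For 1 h of recovery 6 shoot members and 1 root member were higher, and for 0.5 h against 9 h of recovery 8 shoot and 16 root members. At 0.25 h 8 shoot members were higher in roots against 3 h, and 6 and 2 root members in shoots against 3 h and 21 h. Dropping the minimum difference can only add calls, among all probe sets as well. Their shares under this setting are not given here, so nothing is read from the larger counts. Without replicate 1 or without replicate 2 in every group, the rule found 9 to 22 shoot and 32 to 35 root probe sets. Leaving out 1 array gave 3 to 9 interactions and 25 to 26 tissue differences. In roots 5 to 7 root members were higher and 0 lower at 1 h against 0.5 h, 10 to 12 lower and 0 higher at 1 h of recovery, and 6 to 9 higher at 0.5 h against 9 h. In shoots these were 2 to 3 lower, 2 to 4 higher and 5 to 6 higher for shoot members. Across tissues at 0.25 h, 5 shoot members were higher against 3 h and 0 against 21 h, and 1 to 2 and 0 to 1 root members.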

Other observations

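ORA47, an AP2/ERF transcription factor known from jasmonate responses, had an early maximum in roots below the signal needed to be a member. It read 51.3 and 57.1 at 0.25 h, 11.4 and 22.1 at 0.5 h, 9.53 and 14.3 at 1 h, then 15.2 and 15.1 at 3 h of heat, and 11.6 and 13.1 at 21 h of recovery. The 0.25 h arrays lay above all other root arrays, and the limma difference against 21 h of recovery was 1.48 ± 0.22 (limma adjusted p = 0.000125). In shoots it read 34.5 and 35.4 at 0.25 h and 33.5 and 62.3 at 3 h, so the early level was not above the later one there.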
